A study of Homo sapiens with 31 samples.

Results

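The 5'UTR target regions are places that the deposited table assigns wholly or in part to the leader of an mRNA, the part upstream of the start codon, and where AGO held a miRNA and its target closely enough for the RNAs to be ligated into 1 chimeric molecule. They were chosen as all interactions of the deposited Huh-7.5 table whose region label was 5'UTR or CDS||5'UTR and that did not lie on the mitochondrial chromosome. This rule took 635 of 32712 interactions, of which 210 had the label 5'UTR alone and 425 the joint label CDS||5'UTR. They were compared with the 4022 nuclear interactions labelled CDS and the 3895 labelled 3'UTR. Huh-7.5 is a human hepatoma cell line. The table pools 31 libraries: 12 by CLEAR-CLIP, in which the RNAs held by UV-crosslinked AGO were ligated, or left to ligate, to each other, and 19 by standard AGO HITS-CLIP. The CLEAR-CLIP libraries, 2 of each kind, were made with RNAse A (low) and HSPC117 siRNA, with RNAse A (low) alone, with RNAse A (low) and T4 RNA ligase, and, under HSPC117 over-expression, with RNAse A (low), RNAse A (high) or RNAse T1. T4 RNA ligase was added to 2 of the CLEAR-CLIP libraries and left out of the other 10. The standard libraries were 7 without a named treatment and 4 each of mock, LNA-122 and miravirsen cells. No interaction can be traced to its library, so the p-values and intervals below measure only the sampling of interactions, and treatments could not be compared.

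A miRNA guides AGO to an mRNA mainly through its seed, miRNA positions 2 to 8, and most known regulatory sites lie in 3'UTRs, where a bound AGO shortens the life of the mRNA and lowers its translation. The 5'UTR is scanned by the small ribosomal subunit on its way to the start codon, and it carries control elements such as the iron-responsive element of ferritin mRNAs and the pyrimidine tract (5'TOP) of ribosomal protein mRNAs. Pairing outside the seed, toward the 3' end of the miRNA, is called auxiliary here and covers positions 9 onward.

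The sequences below are those on which the description turns. The mature miRNAs are from RefSeq (GRCh38.p14) with the seed in capitals, and 104 of the 128 miRNAs of the 5'UTR interactions matched an entry. The AAAGUGC seed (miR-17-5p, miR-20a-5p, miR-93-5p and miR-106b-5p) accounted for 66 of the 635 interactions, the AGCAGCA seed (miR-16-5p, miR-15a-5p, miR-15b-5p and miR-424-5p) for 45 and the AUUGCAC seed (miR-92a-3p, miR-92b-3p, miR-25-3p and miR-32-5p) for 35. miR-320a, the most frequent single miRNA with 40 interactions, was among the unmatched and is named only, so no seed count or site includes it.
miR-17-5p: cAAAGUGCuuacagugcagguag
miR-20a-5p: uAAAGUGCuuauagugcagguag
miR-93-5p: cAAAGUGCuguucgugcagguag
miR-16-5p: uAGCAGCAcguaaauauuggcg
miR-92a-3p: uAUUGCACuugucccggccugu
miR-122-5p: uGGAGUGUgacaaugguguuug
miR-423-3p: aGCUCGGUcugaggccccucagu
miR-652-3p: aAUGGCGCcacuaggguugug
miR-885-3p: aGGCAGCGggguguaguggaua
miR-744-5p: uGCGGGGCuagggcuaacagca

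The table gives each duplex as a map of paired and unpaired positions. Together with the mature sequence, the map fixes every paired base of the target, and 521 of the 635 duplexes were read in this way. Sites of some of the places described below were chosen for print, with support from 20 reads at the RPLP1 place to 2 reads at TNRC6B. They follow 5' to 3', with n for an unpaired target base, which the map does not name. The bases paired to the miRNA seed are in capitals.
EIF4G2 with miR-17-5p: cctgcacnaaGCACT
EIF4G2 with miR-93-5p: cctgcacgaaGCACT
EIF4G2 with miR-20a-5p: cctgcacnaaGCACT
RPLP1 with miR-423-3p: gcnnnnnggcctcngnnnCCGAGC
RPLP1 with miR-652-3p: cagccctannnnnnnnnGCGCCAT
RPLP1 with miR-885-3p: ccctacacnnnccCGCGCC
RPLP1 with miR-877-5p: cccgcgccatnnCCTCTG
HSPA8 with miR-16-5p: gccaantgcTGCTGCT
MAP3K8 with miR-17-5p: acnctgcactgaGCACTTT
TNRC6B with miR-17-5p: gcactgnnGCACTTT
TNRC6B with miR-20a-5p: gcactgnnGCACTTT
At EIF4G2 the maps of different miRNAs gave the same target letters, and miR-93-5p paired 1 base that miR-17-5p and miR-20a-5p left unpaired. A read that fitted several members of a family was given to 1 of them at random, so members with the same seed at 1 place cannot be told apart with certainty. At RPLP1 the maps of miR-652-3p, miR-885-3p and miR-877-5p had the letters gcgcc in common.

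The region label was checked against position. Among the 5'UTR interactions, 287 lay in a gene that also had an interaction labelled CDS. Of these, 234 (81.5%) lay upstream of every such CDS interaction on the gene's strand. No such share was computed for regions of other labels, so this value has no baseline and does not by itself test the label. The share was 89.5% (77 of 86) for the label 5'UTR alone and 78.1% (157 of 201) for CDS||5'UTR. The difference was 11.4 percentage points (95% Newcombe interval 1.70 to 19.3, two-sided Fisher's exact test p = 0.0299). Interactions of the same gene are set against the same CDS interactions, as with the 8 of ALB (joint label) and the 6 of FTL (5'UTR alone). The test counts them as independent, so its p-value and interval do not measure the spread between genes. What the joint label stands for is not stated. A place that is leader in one transcript and coding in another would carry both names. So would a region that spans the start codon of a transcript. Neither reading was tested. Downstream of every CDS interaction of their gene lay 4 of the 86 interactions labelled 5'UTR alone and 18 of the 201 with the joint label. Of the 88 genes with at least 2 such interactions, 34 had them spread over more than 1000 bases of the genome. UBR3, a ubiquitin ligase, had 3 over 66832 bases. The labels therefore do not place all 635 regions near the start of their gene.

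A search of the RefSeq start windows (250 bases before to 50 after each annotated gene start, GRCh38.p14) asked how many duplexes could be found near a start. Duplexes with at least 10 paired bases were searched only in the windows of their own gene. The bases were found for 20 of 406 duplexes in the 5'UTR set (4.93%), for 0 of 2660 in the CDS set and for 1 of 2557 in the 3'UTR set (0.0391%). By label they were found for 13 of 122 (10.7%) of 5'UTR alone and 7 of 284 (2.46%) of CDS||5'UTR. Of the 20, 10 began after the annotated start and 10 before it. For 13 of the 20, GNAI3, ALDOC, RPLP1 and AFP among them, the pattern occurred in 1 of all 35116 windows (0.00285%), whereas the SGK1 pattern occurred in 32 (0.0911%). These 4 sites are shown with every base read from the window, unpaired ones included, and with seed-paired bases in capitals.
GNAI3 with miR-423-3p: gacggtgcctcagcctGCCGAGC
ALDOC with miR-18a-3p: ccagagggagccaGGGctGCAG
RPLP1 with miR-744-5p: gctgccgccaaggtGCTCgGT
AFP with miR-23a-3p: aaataactagcAAccaTGA
The GNAI3 site, in the leader of a G protein alpha subunit, lies at chr1:109548642-109548664 on the plus strand (GRCh38.p14) and starts at base 28 after the annotated start. The ALDOC site, in an aldolase mRNA, lies at chr17:28576869-28576890 on the minus strand. The RPLP1 site lies at chr15:69452830-69452850 and the AFP site at chr4:73436248-73436266, both on the plus strand. The G+C content of the first 50 bases after the start had a median of 66% in the 410 matched genes of the 5'UTR set, 66% in the 1997 of the CDS set and 66% in the 1922 of the 3'UTR set, against 60% over all RefSeq windows.

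Most 5'UTR interactions rested on few reads. N, the count of individually cloned chimeric reads, was 1 in 599 of the 635 interactions, 2 in 23, 3 in 9, 4 in 1, 7 in 2 and 9 in 1, and the sum was 699 reads. At least 2 reads were seen for 5.67% of interactions in 5'UTRs (36 of 635), 5.17% in CDS (208 of 4022) and 7.93% in 3'UTRs (309 of 3895). The difference was 0.498 percentage points from CDS (interval -1.21 to 2.67, Fisher's exact adjusted p = 0.567) and -2.26 points from 3'UTRs (-4.05 to -0.0330, adjusted p = 0.105), and neither passed the threshold of 0.05. Interactions seen repeatedly had a median predicted free energy of -24.85, against -21.1 for those seen once.

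The best supported interaction was miR-17-5p on EIF4G2, with N = 9 and a minimum free energy (MFE, predicted by RNAhybrid, more negative for a more stable duplex and given by the study in kcal/mol) of -28.9. EIF4G2 encodes a translation initiation factor related to eIF4G that lacks the binding site for the cap-binding protein eIF4E. Its place at chr11:10784000-10784136 (hg18, minus strand, coordinates as deposited) held 4 miRNAs and 14 reads. miR-93-5p had N = 3 and an MFE of -30.8, miR-20a-5p N = 1 and -28.9, and miR-33a-5p N = 1 and -16.0. The miRNAs of the AAAGUGC seed paired there with only 5 consecutive seed bases, scored as a 5mer match, and no interaction at this place had a canonical match (8mer, 7mer-m8, 7mer-A1, 6mer or offset 6mer). The rest of their pairing was auxiliary, as the printed sites show.

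RPLP1, which encodes an acidic protein of the large ribosomal subunit, had the most 5'UTR interactions of any gene, 10 of the 11 nuclear interactions assigned to it. Of these, 8 overlapped at chr15:67532305-67532400 (hg18, plus strand) and came from 8 miRNAs with 20 reads in all. miR-423-3p had N = 7 there (MFE -30.1, 6mer), miR-885-3p N = 3 (-30.2, 8mer with a bulge), miR-652-3p N = 3 (-27.3, 7mer-m8) and miR-744-5p N = 2 (-30.8, 7mer-m8 with a bulge). miR-320a had N = 2 (-28.1), miR-877-5p N = 1 (-31.9), miR-122-5p N = 1 (-23.9) and miR-374a-5p N = 1 (-7.6). The last is a weak predicted duplex, while the other 7 lay between -31.9 and -23.9. The remaining 2 interactions, with miR-744-5p and miR-885-3p, lay upstream and carried the label 5'UTR alone.

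**Figure D1:**
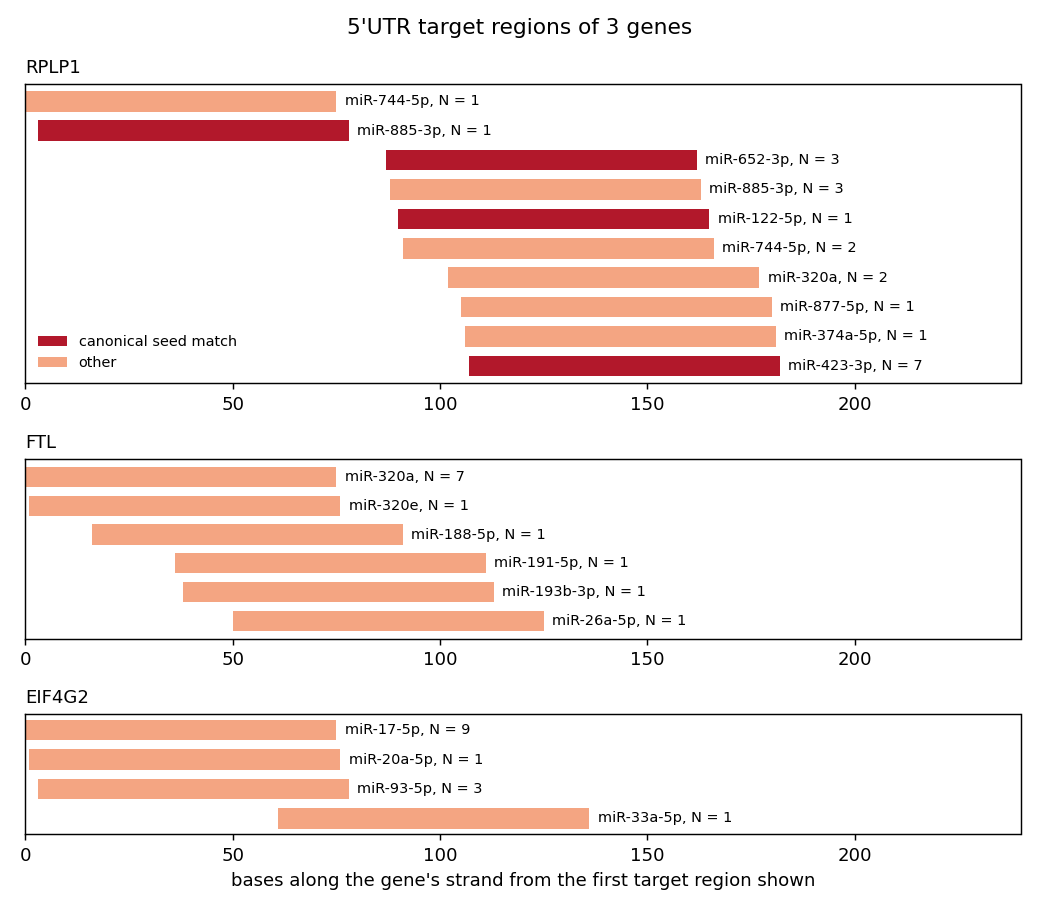
The 75-base target regions of 3 genes with several 5'UTR interactions, placed by their distance in bases along the gene's strand from the first region shown. Each bar is 1 interaction with its miRNA and N; dark bars have a canonical seed match, which holds for 4 of 10 in RPLP1, 0 of 6 in FTL and 0 of 4 in EIF4G2.

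FTL, the ferritin light chain whose leader carries an iron-responsive element, had 6 overlapping interactions from 6 miRNAs at chr19:54160450-54160575 (hg18, plus strand), all labelled 5'UTR alone. miR-320a had N = 7 with an MFE of -27.4, and miR-320e (-23.8), miR-188-5p (-28.8), miR-191-5p (-19.7), miR-193b-3p (-21.1) and miR-26a-5p (-17.2) had N = 1 each. None of the 6 had a canonical match. FTH1, the ferritin heavy chain, had 2 interactions, with miR-744-5p (-26.4) and miR-455-3p (-18.6), and both were 6mers.

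ALB, the albumin mRNA, had 8 interactions from 8 miRNAs, all with the joint label, out of 33 nuclear interactions of the gene. They fell in separate groups, of 3 at chr4:74491247-74491373 and of 4 at chr4:74496572-74496723 (hg18, plus strand), with 1 between them, and with MFE from -29.4 for miR-885-3p to -13.9 for miR-93-5p. Only miR-885-3p and miR-23a-3p had N = 2. IGF2, a fetal growth factor, and its read-through gene INS-IGF2 had 4 interactions each, and 4 of these 8 overlapped at chr11:2116435-2116632 on the minus strand. Those genes share sequence, so the assignment of an interaction to one or the other is uncertain. CKB (brain-type creatine kinase), RPL5 (a ribosomal protein) and GAPDH (a glycolytic enzyme) had 4 interactions each, none of them canonical, and the remaining genes had 3 or fewer.

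Across the set, 500 named genes had a 5'UTR interaction, 412 of them only 1 and 24 at least 3. Of these genes, 196 (39.2%) also had a CDS interaction and 157 (31.4%) a 3'UTR interaction, and 229 had neither. Among all 7069 genes with a nuclear interaction, 2424 had one in CDS and 2308 one in a 3'UTR. Of 626 pairs of a gene and a miRNA, 18 were also seen in the CDS and 15 in the 3'UTR of that gene. Recurrence of pairs between CDS and 3'UTRs was not computed, so these counts have no baseline. With 1 read for 599 of the 635 interactions, recurrence would often go unseen. At 48 of 566 places (8.48%) the 5'UTR regions of at least 2 miRNAs overlapped, compared with 258 of 3676 (7.02%) in CDS and 353 of 3417 (10.3%) in 3'UTRs. TNRC6B, which encodes a GW182 partner of AGO, and ACACA, which encodes acetyl-CoA carboxylase, each had miR-17-5p and miR-20a-5p. In TNRC6B both were 8mers (-24.7 and -22.9) and in ACACA both were 6mers (-20.6 and -21.3). MAP3K8, a MAP kinase kinase kinase, had an 8mer of miR-17-5p with N = 2 and an MFE of -30.5, overlapping miR-19a-3p. HSPA8, a constitutive HSP70 chaperone, had an 8mer of miR-16-5p with N = 3 and an MFE of -25.2. Further places of at least 3 miRNAs lay in CTNND1, a catenin, whose 3 interactions overlapped 1 assigned to its neighbour TMX2, and in PANK2, a pantothenate kinase (miR-320a, miR-92a-3p and miR-17-5p).

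Gene lists chosen for the tissue and for leader biology were read against all genes. Of the 7069 genes with any nuclear interaction, 500 (7.07%) had one in a 5'UTR, making up 2.88% of the interactions assigned to genes. Of those 21961 interactions, 633 were in 5'UTRs, 4015 in CDS and 3890 in 3'UTRs, and the rest carried other labels such as intron. The 5'UTR share of a list thus depends also on how many of its interactions carry those other labels. Of the 5'TOP mRNAs of the translation machinery, 6 of 58 (10.3%) had a 5'UTR interaction: RPLP1, RPL5, GNB2L1 (the ribosomal scaffold RACK1), EIF3E, RPS6 and RPL27A. They held 20 of the list's 147 interactions (13.6%), and RPLP1 alone held 10 of these. Of the mRNAs with known regulatory leaders, 7 of 23 had one (13 of 106 interactions, 12.3%), among them FTL, FTH1 and MYC (miR-320a, N = 2, -30.4). Of the translation initiation factors, 5 of 26 had one (10 of 68 interactions, 14.7%), EIF4G2 with 4 and EIF4G1, the scaffold of the cap-binding complex, with 3. None of those 10 interactions was canonical, and those of EIF4G2 and EIF4G1 all carried the joint label CDS||5'UTR. In CDS and 3'UTRs the 5'TOP list held 65 and 16 interactions, the regulatory leaders 21 and 41 and the initiation factors 19 and 15.

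Of the secreted hepatocyte proteins, 8 of 20 had a 5'UTR interaction, ALB, FN1 (fibronectin), AFP (the fetal counterpart of albumin) and AHSG (fetuin-A) among them, with 18 of 223 interactions (8.07%). Of the genes of cholesterol and fatty acid metabolism, 9 of 26 had one, with 10 of 204 interactions (4.90%): 2 in ACACA and 1 each in genes such as IDI1 (miR-27a-3p, -26.8) and SREBF1 (miR-196a-5p, -25.1), which encodes a transcription factor of lipid synthesis. Of the miRNA pathway genes, 5 of 17 had one (7 of 83 interactions, 8.43%), with 2 each in TNRC6B and DICER1, the enzyme that cuts pre-miRNAs, and 1 each in TARBP2, DDX6 and TNRC6A. Of the hepatocyte markers, 10 of 11 had an interaction anywhere and 3 had one in a 5'UTR (11 of 185 interactions, 5.95%). Of 11 neuronal, blood and fibroblast markers, SYT1 was the only one with any interaction, all 6 of them intronic. In CDS and 3'UTRs the secreted proteins held 157 and 9 interactions and the cholesterol and fatty acid genes 55 and 61. The miRNA pathway held 22 and 32 and the hepatocyte markers 131 and 4. Expression was not measured here, and the other labels were not held equal, so no share of a list can be read as a preference.

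No miRNA with at least 50 interactions passed the test of a different share in 5'UTRs. The 12 most frequent made up 300 of the 635 interactions (47.2%), and 49 of the 128 miRNAs had 1 interaction each. miR-320a had 40 (6.30% of the 5'UTR set, 6.51% of the CDS set and 5.42% of the 3'UTR set). miR-17-5p had 39 (6.14%, compared with 5.52% in CDS and 8.45% in 3'UTRs), and miR-16-5p had 31 (4.88%, compared with 4.80% and 3.59%). miR-92a-3p followed with 29, miR-23a-3p and miR-26a-5p with 25 each, miR-19a-3p and miR-27a-3p with 22 each, miR-122-5p with 21, miR-194-5p with 17, miR-20a-5p with 15 and miR-103a-3p with 14. The share of miR-122-5p, which dominates the miRNA pool of liver, was 3.31% in the 5'UTR set, 4.92% in the CDS set and 2.64% in the 3'UTR set. The pool includes 4 libraries each from cells given LNA-122 and miravirsen, both inhibitors of miR-122. Their effect on this share was not tested, so it is not the share of untreated cells.

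**Figure D2:**
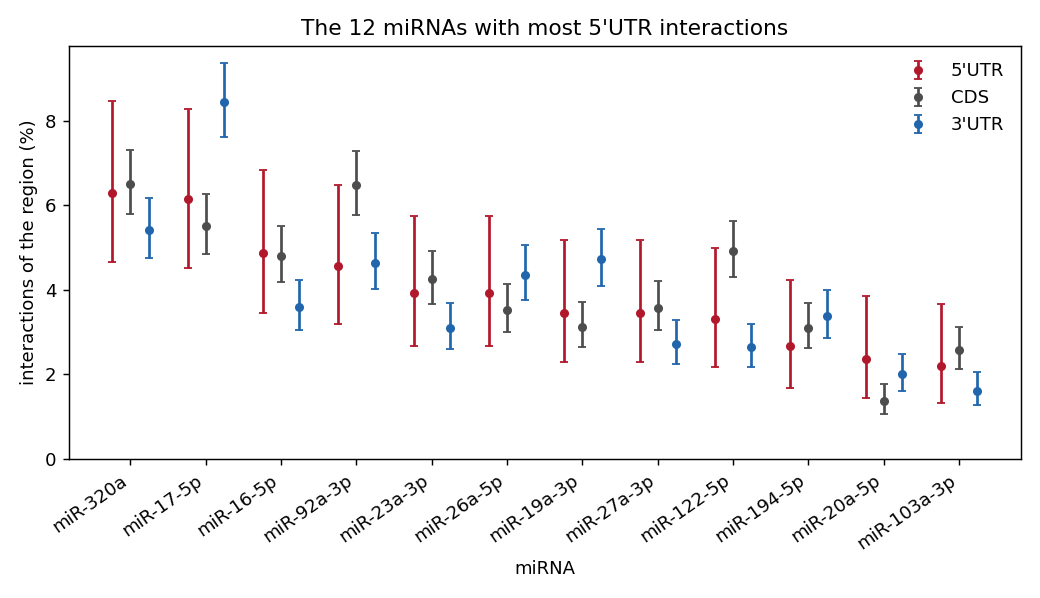
Share of the interactions of each region (%, with 95% Wilson intervals) for the 12 miRNAs with most 5'UTR interactions, in 5'UTR (left), CDS (middle) and 3'UTR (right). The intervals overlap for most miRNAs. In 5'UTRs miR-320a leads with 6.30%, and it had 6.51% in CDS and 5.42% in 3'UTRs, where miR-17-5p had 8.45%.

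Fisher's exact test with Benjamini-Hochberg adjustment over the 83 miRNAs with at least 50 interactions called 0 against CDS (0% of those tested) and 0 against 3'UTRs (0%). At an unadjusted p under 0.05 there were 1 and 4. By the exact test the lowest adjusted p was 0.407, for miR-106b-5p with 0.472% of the 5'UTR set and 1.93% of the 3'UTR set (difference -1.45 percentage points, interval -2.03 to -0.467). miR-744-5p, with too few interactions for the minimum of 50, passed at a minimum of 20: its 7 interactions made up 1.10% of the 5'UTR set, against 5 (0.124%, adjusted p = 0.0469) in CDS and 4 (0.103%, adjusted p = 0.0265) in 3'UTRs. They lay on RPLP1 (2), ASXL1, S100A10, DLGAP4, FTH1 and ALB. The mature miRNAs of the 5'UTR set were richer in G+C, with a mean of 48.7% (SD 8.78, n = 521) against 47.5% (SD 7.90, n = 3404) in CDS and 46.2% (SD 7.66, n = 3300) in 3'UTRs. By least squares with standard errors clustered on gene (n = 521 in 5'UTRs), the difference was 1.13 percentage points from CDS (SE 0.443, adjusted p = 0.0111) and 2.44 points from 3'UTRs (SE 0.444, adjusted p = 8.48e-08). All interactions of a miRNA share 1 value of G+C, and with standard errors clustered on the 104 matched miRNAs instead (n = 521), the SE was 0.492 for CDS (adjusted p = 0.022) and 0.574 for 3'UTRs (adjusted p = 4.4e-05). The unmatched miR-320a is not in this fit. For the label 5'UTR alone the difference was 2.51 points from CDS and 3.82 points from 3'UTRs.

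Canonical seed matches were less frequent in 5'UTRs than in 3'UTRs, and the difference from CDS did not pass the test. A canonical match was present in 194 of 635 5'UTR interactions (30.6%, 95% Wilson interval 27.1 to 34.2), 1293 of 4022 CDS interactions (32.1%) and 1632 of 3895 3'UTR interactions (41.9%). The difference was -1.60 percentage points from CDS (-5.35 to 2.36, Fisher's exact adjusted p = 0.436) and -11.3 points from 3'UTRs (-15.1 to -7.35, adjusted p = 9.21e-08). With miRNAs as strata (Mantel-Haenszel) the differences were -0.469 points from CDS and -10.2 points from 3'UTRs. Among interactions with at least 2 reads, 15 of 36 in 5'UTRs (41.7%) had a canonical match, 122 of 208 in CDS (58.7%) and 207 of 309 in 3'UTRs (67.0%). The difference there was -17.0 points from CDS (-32.9 to 0.517, Fisher's exact adjusted p = 0.0694) and -25.3 points from 3'UTRs (-40.7 to -8.30, adjusted p = 0.0102). The labels 5'UTR alone (31.4%) and CDS||5'UTR (30.1%) differed by 1.31 points (-6.12 to 9.09, Fisher's exact adjusted p = 0.784).

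**Figure D3:**
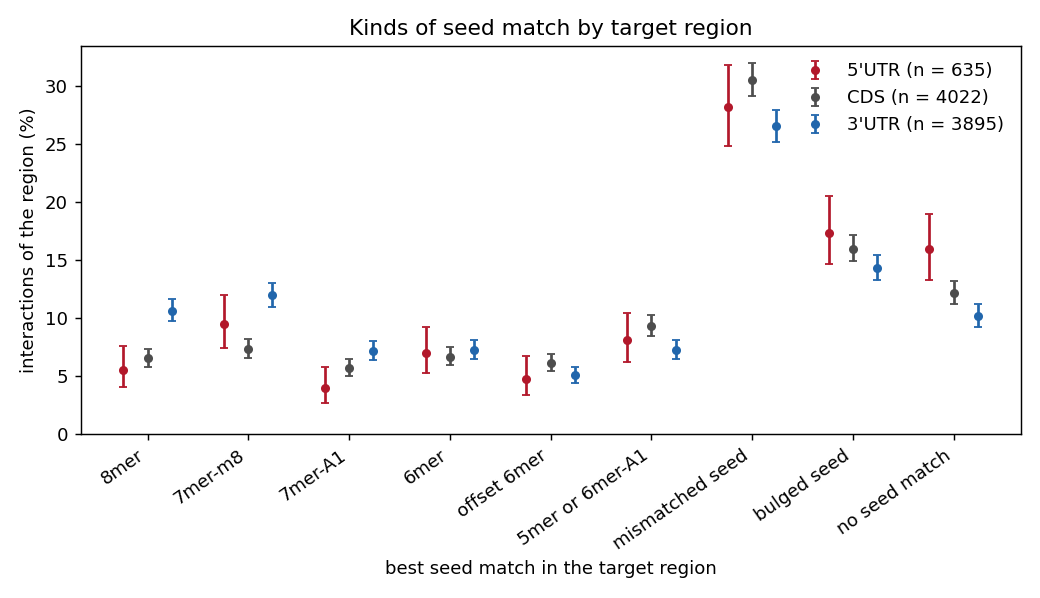
Share of the interactions of each region (%, with 95% Wilson intervals) by the best seed match in the target region, for 5'UTR (n = 635), CDS (n = 4022) and 3'UTR (n = 3895). In 5'UTRs 8mers (5.51%) and 7mer-A1 matches (3.94%) were fewer than in 3'UTRs (10.6% and 7.14%), and regions with no seed match more (15.9% and 10.1%).

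By kind of match, 3 of 9 kinds passed the test against 3'UTRs (33.3%) and 0 of 9 against CDS (0%, with 1 at an unadjusted p under 0.05). The 8mer, which pairs the whole seed and has an A opposite miRNA position 1, made up 5.51% of 5'UTR interactions (35) against 10.6% of 3'UTR interactions (Fisher's exact adjusted p = 0.000164). The 7mer-A1 made up 3.94% against 7.14% (exact adjusted p = 0.00591). For the label 5'UTR alone neither call held, with 5.71% 8mers and 2.86% 7mer-A1 matches (exact adjusted p = 0.0599 for both). Regions without any seed match made up 15.9% (101) against 10.1% (exact adjusted p = 0.000164), and 12.1% in CDS (adjusted p = 0.0899). The 7mer-m8 made up 9.45% of the 5'UTR set, 7.31% of the CDS set and 11.9% of the 3'UTR set, with no call. Mismatched seeds were the largest kind, with 179 interactions (28.2%), and bulged seeds made up 110 (17.3%). Among the mismatched ones, 27 (15.1%) were G:U pairs. The bulged ones had 90 with the extra base in the miRNA, 31 of them at position 4, and 20 with it in the target.

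Among miRNAs, the share of canonical matches in 5'UTRs ran from 54.8% for miR-16-5p (17 of 31) and 53.8% for miR-17-5p (21 of 39) to 17.2% for miR-92a-3p (5 of 29) and 4.55% for miR-19a-3p (1 of 22). In 3'UTRs the same miRNAs had 48.6%, 55.9%, 38.7% and 23.9%. With 22 to 39 interactions each in 5'UTRs, these single shares were not tested.

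The 8mers with the lowest MFE were HNRNPH1 with miR-197-3p (-33.7), ZDHHC5 with miR-33a-5p (-31.4), MAP3K8 with miR-17-5p (-30.5), MTPN with miR-455-3p (-28.4) and STX7 with miR-122-5p (-28.3). HNRNPH1 encodes a splicing regulator, ZDHHC5 a palmitoyltransferase and STX7 a syntaxin of endosomes. In 33 of the 35 5'UTR 8mers the predicted duplex paired all of positions 2 to 8 by Watson-Crick pairs, and HNRNPH1 was scored as an 8mer although its duplex loops out target bases inside the seed. The 8mer duplexes had 8.43 auxiliary pairs (SD 1.91, n = 35) in 5'UTRs, 8.06 (SD 2.40, n = 261) in CDS and 8.16 (SD 2.64, n = 413) in 3'UTRs. The site of ZDHHC5 pairs at both ends around an unpaired middle.
ZDHHC5 with miR-33a-5p: tgcagtgcnnnnctaCAATGCA
STX7 with miR-122-5p: gaacatcannnntgtcnnACACTCC

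Canonical matches lay close to the ligation point. They began in the first 37 of the 75 positions in 170 of 194 5'UTR interactions (87.6%), 1097 of 1293 in CDS (84.8%) and 1308 of 1632 in 3'UTRs (80.1%). The difference of 7.48 percentage points from 3'UTRs passed the test (1.79 to 11.9, Fisher's exact adjusted p = 0.0234), and that of 2.79 points from CDS did not (-2.90 to 7.21, adjusted p = 0.331).

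Of the regions compared, 5'UTRs had the lowest predicted free energies on average. MFE averaged -21.6 (SD 5.59, n = 635) in 5'UTRs, -20.7 (SD 5.13, n = 4022) in CDS and -19.8 (SD 5.41, n = 3895) in 3'UTRs, with medians of -21.4, -20.4 and -19.4. An MFE of -25 or less was reached by 168 5'UTR interactions (26.5%), 19.6% in CDS and 17.5% in 3'UTRs. Within miRNAs, by least squares with a term for each miRNA (n = 635 in 5'UTRs), the difference was -0.69 from CDS (SE 0.202, adjusted p = 0.00161) and -1.13 from 3'UTRs (SE 0.206, adjusted p = 3.53e-07). With 1 interaction kept per gene and region (n = 502 in 5'UTRs), the difference from CDS was -0.127 (adjusted p = 0.776) and that from 3'UTRs -0.551 (adjusted p = 0.0511), so neither call held there. The lowest MFE of the set was -37.0, for miR-874 on USP10, a deubiquitinase, followed by miR-320a on ATXN10 (-35.7) and on IARS, an aminoacyl-tRNA synthetase (-35.6).

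**Figure D4:**
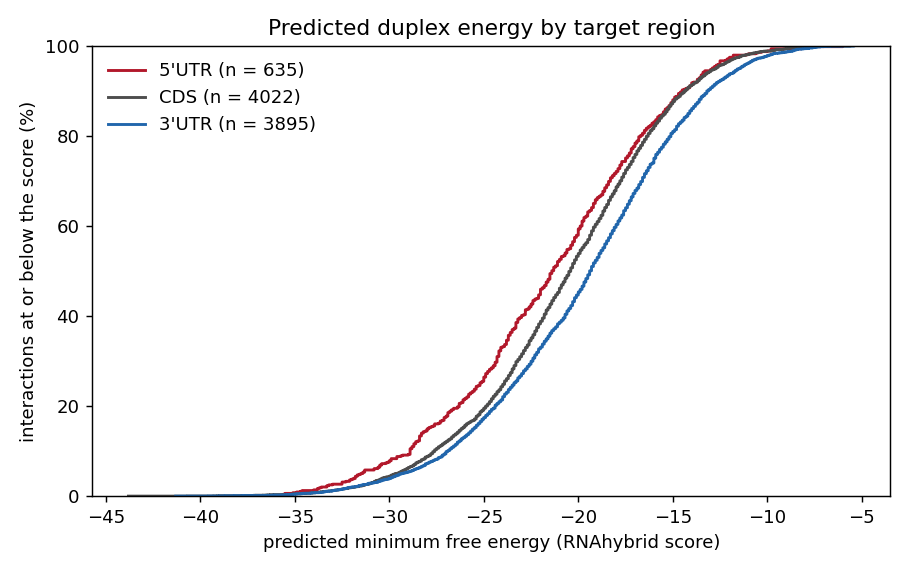
Cumulative share of interactions (%) at or below each predicted minimum free energy (RNAhybrid score), for 5'UTR (n = 635), CDS (n = 4022) and 3'UTR (n = 3895). The 5'UTR curve lies to the left of the others over most of its range, with medians of -21.4, -20.4 and -19.4.

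The kind of base pair differed with the region. Among decoded duplexes, 5'UTRs had 7.45 G:C pairs each (SD 2.05, n = 521), CDS 7.12 (SD 1.86, n = 3396) and 3'UTRs 6.43 (SD 1.90, n = 3295). Within miRNAs (n = 521 in 5'UTRs) there were 0.178 more G:C pairs than in CDS (SE 0.0744, adjusted p = 0.034) and 0.695 more than in 3'UTRs (SE 0.0772, adjusted p = 1.29e-18). In the same fit (n = 521), A:U pairs differed by -0.182 from CDS (SE 0.0927, adjusted p = 0.0588) and by -0.60 from 3'UTRs (SE 0.0932, adjusted p = 3.75e-10). This measure was added after the MFE difference was seen. In the same fit the excess over CDS was lost without miR-17-5p (0.151, n = 482, adjusted p = 0.0556). It was also lost with 1 interaction per gene and region (0.0646, n = 423, adjusted p = 0.455). That last choice was again by highest N and then lowest MFE, so it carries the limit given for MFE.

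By number of paired positions, 5'UTR duplexes had 9.04 auxiliary pairs (SD 2.48), CDS 8.94 (SD 2.45) and 3'UTRs 8.75 (SD 2.62). The within-miRNA difference (n = 635 in 5'UTRs) was 0.123 from CDS (SE 0.101, adjusted p = 0.296) and 0.31 from 3'UTRs (SE 0.102, adjusted p = 0.00478). For the label 5'UTR alone (n = 210), the difference was 0.349 from CDS (adjusted p = 0.0332) and 0.538 from 3'UTRs (adjusted p = 0.00225). With 1 interaction per gene and region (n = 502), chosen by N and MFE as above, the least-squares difference from 3'UTRs was 0.185 (adjusted p = 0.224). Paired seed positions numbered 5.39 (SD 1.45, n = 635) in 5'UTRs, 5.39 (SD 1.52) in CDS and 5.61 (SD 1.54) in 3'UTRs, a difference of 0.027 from CDS (adjusted p = 0.766) and -0.234 from 3'UTRs (SE 0.063, adjusted p = 0.000828). G:U pairs, which count as paired, numbered 1.58 a duplex in 5'UTRs (n = 635), 1.48 in CDS and 1.599 in 3'UTRs, a difference of 0.136 from CDS (SE 0.0558, adjusted p = 0.0237) and -0.00988 from 3'UTRs (adjusted p = 0.863). Among decoded duplexes only (n = 521), the difference from CDS was 0.123 (SE 0.0602, adjusted p = 0.0588) and was not called, while for the label 5'UTR alone (n = 210) it was 0.319 (adjusted p = 0.00384).

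**Figure D5:**
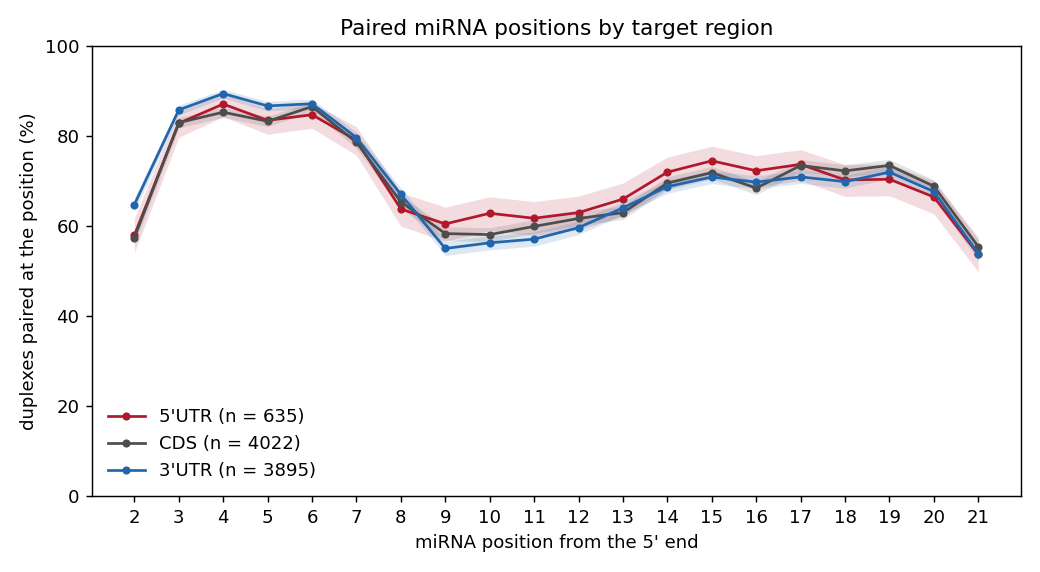
Share of duplexes (%) paired at each miRNA position from 2 to 21, with 95% Wilson intervals as bands, for 5'UTR (n = 635), CDS (n = 4022) and 3'UTR (n = 3895). At position 10 the share was 62.8% in 5'UTRs and 56.3% in 3'UTRs, and at position 2 it was 58.0% and 64.8%.

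By position, 2 of 20 positions passed against 3'UTRs (10% of those tested) and 0 against CDS (0%, with 1 at an unadjusted p under 0.05). Position 2, at the start of the seed, was paired in 58.0% of 5'UTR duplexes against 64.8% in 3'UTRs (exact adjusted p = 0.0212). For the label 5'UTR alone it was paired in 58.6% and not called (exact adjusted p = 0.212), while positions 9, 10 and 15 were called higher. Position 10, just past the seed, was paired in 62.8% against 56.3% (exact adjusted p = 0.0212), and in 58.1% of CDS duplexes (adjusted p = 0.526). Positions 9 and 11 were 5.45 and 4.63 percentage points above 3'UTRs (exact adjusted p = 0.0732 and 0.138).

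The authors grouped all duplexes by k-means into 7 classes of pairing pattern. Class 6, paired throughout, held 148 5'UTR duplexes (23.3%), class 2, paired at 82.1% of positions 13 to 16 and 60.9% of positions 17 to 21, held 139 (21.9%), and class 4, with little seed pairing, held 56 (8.82%). Against 3'UTRs 1 of 7 classes passed the test (14.3%), and against CDS 0 of 7 (0%, with 2 at an unadjusted p under 0.05). The one called was class 3, whose duplexes leave positions 9 to 12 mostly open. It held 57 5'UTR duplexes (8.98%) against 13.04% in 3'UTRs (exact adjusted p = 0.0246) and 12.01% in CDS (adjusted p = 0.0965). Like the tests of seed match kinds and positions, this one had no term for miRNA or gene. The paper reports class preferences for most miRNAs. The shares of miRNAs were not held equal between the sets, so a part of the miRNA mix in this call was not tested.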

How the data were processed

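The 31 libraries of AGO-bound RNA reached the deposit as 1 table pooled over all of them. The authors used CASAVA 1.8.2 and Bowtie with the hg18 genome, removed PCR duplicates, required the target part of a read to map to 1 place and assigned a read that fitted several miRNAs to 1 of them at random. The table gives N, a deposited count of cloned chimeric reads with no scaling, and MFE, a deposited RNAhybrid score whose column names no unit (the study gives such energies in kcal/mol). The Bowtie version and the annotation behind regions and genes are not given in the sources used here, and library depths are not part of the table.

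Each interaction counted once. Shares were compared by two-sided Fisher's exact tests with 95% Newcombe intervals, and duplex measures by least squares with miRNA terms and standard errors clustered on gene. The exact tests took no account of miRNA or gene, and only the canonical share was also compared with miRNAs as strata. The Benjamini-Hochberg adjustment, read at a threshold of 0.05, ran over both comparisons for shares, over all measures and both comparisons for duplex measures, and over all items of a comparison for miRNAs, kinds, positions and classes. Numbers of G:C and A:U pairs, added after the data were seen, were adjusted over the rows of their own fit. Intervals cover counting error only. Target bases were read with the first map character as miRNA position 2. Named were the 12 miRNAs and 15 genes with most 5'UTR interactions, up to 4 genes of each list, the interactions with most reads, the 8mers of lowest MFE and the places with most miRNAs. miR-744-5p, the start windows and the lowest MFE values were chosen after their values were seen. The members and lists were chosen with earlier results of these data known. Scripts were tested on simulated data and ran on Python 3.11.15, scipy 1.17.1 and statsmodels 0.14.6. Some items that the naming rule would include are not reported here.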

Additional observations from a re-analysis of the deposited data

Results flagged for a closer look

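Signal outside the comparisons appeared among the interactions that the rule left out. On the mitochondrial chromosome, 31 interactions with 45 reads carried the label 5'UTR or CDS||5'UTR, with no gene symbol. Their median MFE was -15.3 and 2 of them (6.45%) had a canonical match. Another 37 nuclear interactions had a joint label that includes 5'UTR with an intron or with the 3'UTR, with a median MFE of -20.4 and 10 canonical matches (27.0%). They are given because they carry a 5'UTR label and entered no comparison.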

How the results depend on the processing

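No paired analysis was possible because the deposited table pools the libraries and its interactions carry no replicate number. Of 114 alternatives for 24 results, all were run and 92 kept the direction and the side of the threshold, or a count within 1.5 times. The lower canonical share than in 3'UTRs did so in every alternative tried for it.

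With the label 5'UTR alone (210 interactions), the share with at least 2 reads was -0.41 percentage points from CDS, seed pairs were -0.0063 from CDS and G:U pairs 0.173 from 3'UTRs, all reversed and none past the threshold. Auxiliary pairs were 0.349 above CDS, now past it, the match near the ligation point was 7.73 points above 3'UTRs but no longer past it (Fisher's exact adjusted p = 0.306), and 1 kind of seed match, regions without any, was called against 3'UTRs, so that the 8mer and 7mer-A1 calls were lost. The number of positions called was 3, all higher, without position 2. Fewer interactions enter there.

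With 1 interaction per gene and region, the one of highest N and then lowest MFE, MFE was -0.127 from CDS and -0.551 from 3'UTRs and auxiliary pairs were 0.185 from 3'UTRs, none past the threshold. The share with at least 2 reads was -1.18 points from CDS, reversed, and -5.74 points from 3'UTRs, now past it. Keeping the highest N and then the lowest MFE selects on the measures that are compared. It left 502 of 635 interactions in 5'UTRs, 2431 of 4022 in CDS and 2313 of 3895 in 3'UTRs, so it acts unequally on the regions. The shifts under this setting therefore cannot be told apart from the choice itself.

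With N of at least 2 (36 interactions in 5'UTRs), MFE was -0.514 from CDS and -0.721 from 3'UTRs, neither past the threshold, and the canonical share was -17.0 points from CDS and -25.3 points from 3'UTRs, with the sides of the threshold kept. Without miRNA terms, seed pairs were -0.00511 from CDS, reversed, and G:U pairs 0.102 from CDS, no longer past it. With Watson-Crick pairs only, seed pairs were -0.00521 from CDS. With the kind of seed match as a further term, auxiliary pairs were 0.204 from 3'UTRs, no longer past the threshold, and seed pairs 0.0211, reversed. The cause was not tested.

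With a minimum of 20 interactions, 1 miRNA, miR-744-5p, was called in each comparison. Without miR-320a, 2 classes and 1 position were called against 3'UTRs: class 2 was higher (22.5% in 5'UTRs and 18.1% in 3'UTRs), class 3 was lower, and position 10 was lost. Without miR-17-5p or with errors clustered on miRNA, alternatives also chosen after seeing the data, both miRNA G+C differences kept their side of the threshold, whereas leaving out miR-320a changed nothing there because it has no matched sequence. Of 8 alternatives for G:C pairs, chosen after seeing the data, 2 lost the excess over CDS: 0.151 without miR-17-5p and 0.0646 with 1 interaction per gene and region. With N = 1 for 599 of 635 interactions, depth limits every statement on a single interaction.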
